A study of Mus musculus with 6 samples.

Results

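The DEAD and DEAH box RNA helicases are the genes named Ddx or Dhx with a number, and 51 of them were measured among the 35406 rows of the expression table. Of 53 rows with such a name, 1 on chromosome Y and 1 that names Ddx19a and Ddx19b together were left out, and each remaining symbol had a single row, which had passed the authors' test for sufficient data (status OK). The 51 comprise 35 Ddx and 16 Dhx genes. RNA was taken from the nucleus accumbens, the ventral part of the striatum, of male C57BL/6 mice at 11 weeks of age. The cocaine group had repeated intraperitoneal injections at 20 mg/kg over 1 week and the saline group had saline injections over the same time, and both were examined after 24 h of withdrawal. Each group comprised 3 pools of 5 mice, with both hemispheres of each mouse, and whole cages received a single treatment, so that cage and treatment cannot be told apart. The table holds 1 value per gene and group, with none per pool, and the sources used here do not say whether the 3 pools entered the authors' test as replicates.

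These proteins use ATP to unwind short RNA duplexes or to strip proteins from RNA, and are named after the amino acids of a conserved motif, DEAD or DEAH in the single-letter code. DEAD box members mostly open duplexes locally, and DEAH box members travel along a strand, as in the spliceosome, where successive members drive each rearrangement. In neurons they act on splicing, ribosome assembly, mRNA export, translation, storage of mRNA in granules and RNA sensing. 1 member by name, Ddx26b, is listed by RefSeq as Ints6l, a relative of an Integrator complex subunit, and is kept under its name as the table has it.

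After cocaine, 5 of the 51 genes rose and 1 fell at a q-value under 0.05 in the authors' deposited table. Ddx5, Ddx50, Dhx36, Dhx9 and Ddx26b were higher, by 1.25 to 1.40-fold, and Dhx32 was lower, at 0.813 of the saline level. The 6 called genes are 11.8% of the members, and 11.9% of all rows of status OK were called, so the share of calls is that of the table as a whole. In bulk tissue, fewer cells of a type and less RNA per cell cannot be told apart. By direction, 9.80% of the members were called higher, against 6.1% of all rows, and 1.96% were called lower, against 5.76%. That split changed with scaling, where p was recomputed from the shifted ratios. The adjustment then ran over the rows of status OK above 0 in both groups, which are fewer than those behind the deposited q. With all ratios centred on the median of all genes, 3 members were called higher and 2 lower, and with both groups scaled to the same sum of FPKM (fragments per kilobase of transcript, scaled to the mapped fragments), 2 were called higher and 3 lower. At a q under 0.1, the limit at which the authors marked genes, 8 members were called, against 14.6% of all rows.

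The promoters of 5 of the 6 called genes are printed because these genes carry the calls, 4 of them higher and the last lower after cocaine, and Ddx26b is left out as no helicase by its RefSeq name. Each line gives the 250 bases before the transcription start in RefSeq (build GRCm38.p6, all on the minus strand, written 5′ to 3′ along the gene). Capitals mark matches on either strand to the CRE (TGACGTCA), the TATA box (TATAAA), the CCAAT box (CCAAT), the GC box (GGGCGG) and an ETS motif (CCGGAAGT). The AP-1 motif (TGANTCA) and the E-box (CACGTG) were also searched, and neither stands in these 5 windows. The windows are chr11:106788495-106788744 for Ddx5, chr10:62651219-62651468 for Ddx50, chr1:153487661-153487910 for Dhx9, chr3:62506989-62507238 for Dhx36 and chr7:133776804-133777053 for Dhx32.
Ddx5: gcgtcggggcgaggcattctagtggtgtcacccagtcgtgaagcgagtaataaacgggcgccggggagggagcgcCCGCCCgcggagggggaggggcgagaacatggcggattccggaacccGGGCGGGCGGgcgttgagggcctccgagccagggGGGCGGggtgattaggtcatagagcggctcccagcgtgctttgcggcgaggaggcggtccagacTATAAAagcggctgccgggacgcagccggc
Ddx50: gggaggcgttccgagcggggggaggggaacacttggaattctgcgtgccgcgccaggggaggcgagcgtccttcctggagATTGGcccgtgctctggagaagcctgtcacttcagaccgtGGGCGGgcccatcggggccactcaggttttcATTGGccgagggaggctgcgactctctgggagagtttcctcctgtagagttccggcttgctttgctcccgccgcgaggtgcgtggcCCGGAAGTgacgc
Dhx9: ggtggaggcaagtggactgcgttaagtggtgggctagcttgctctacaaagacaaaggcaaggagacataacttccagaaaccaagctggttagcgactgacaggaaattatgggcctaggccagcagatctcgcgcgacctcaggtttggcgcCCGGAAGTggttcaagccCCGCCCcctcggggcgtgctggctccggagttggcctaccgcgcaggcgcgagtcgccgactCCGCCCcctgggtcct
Dhx36: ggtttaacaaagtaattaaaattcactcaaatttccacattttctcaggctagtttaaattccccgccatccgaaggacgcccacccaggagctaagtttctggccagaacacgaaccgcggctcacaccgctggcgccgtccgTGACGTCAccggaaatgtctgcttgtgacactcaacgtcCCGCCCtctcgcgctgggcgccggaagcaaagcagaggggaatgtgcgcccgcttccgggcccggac
Dhx32: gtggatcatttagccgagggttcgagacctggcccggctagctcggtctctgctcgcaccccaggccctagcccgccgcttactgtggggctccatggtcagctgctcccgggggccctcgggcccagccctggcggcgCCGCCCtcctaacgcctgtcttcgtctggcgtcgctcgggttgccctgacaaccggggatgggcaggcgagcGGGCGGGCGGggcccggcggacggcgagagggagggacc

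All 5 windows hold the GC box, with 4 matches in Ddx5, 3 in Dhx32, 2 in Dhx9 and 1 each in Ddx50 and Dhx36, some of them overlapping. Ddx5 has the TATA box near its start, Ddx50 and Dhx9 each have the ETS motif, Ddx50 has the CCAAT box in 2 places and Dhx36 has the CRE. Promoters were found for 45 of the 51 members, and the GC box stood in 31 of them (68.9%), against 42.8% of the promoters of 17492 protein-coding genes. The CRE, the palindrome bound by the activity-dependent factor CREB, stood in 3 members (6.67%) and in 2.01% of all. Of the called members, only Dhx36 had it. The motif of AP-1, the Fos and Jun dimer, stood in 0 of the 45 and in 6.20% of all, and the TATA box in 2 members (4.44%) and 12.3% of all. The E-box was matched in 4 members (8.89%) and 6.62% of all, the ETS motif in 5 (11.1%) and 3.84%, and the CCAAT box in 20 (44.4%) and 36.2%. The member windows held a median of 19 CG dinucleotides, against 10 in all promoters. The letters of the GC box, the CRE, the E-box and the ETS motif include CG. The part of base composition in these shares was not tested. These are matches of letters within the window, and nothing in the files measures binding there.

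Levels are given in FPKM, a scale that allows genes to be compared because it is set per transcript length. The 51 genes spanned 0.0285 FPKM (Ddx43) to 356 FPKM (Ddx5) as the mean of the group values. 2 genes were above 100 FPKM, 29 lay between 10 and 100, 16 between 1 and 10, and 4 were below 1. Ddx5 alone made up 28.1% of the summed helicase level after cocaine and 24.1% after saline. The sum over all 51 was 1411 FPKM after cocaine and 1313 FPKM after saline, and without Ddx5 it was 1015 and 997 FPKM. The 6 most abundant genes were Ddx5, Ddx39b, Dhx30, Ddx17, Ddx3x and Ddx24, and Ddx5 was the only one of these that was called.

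**Figure D1:**
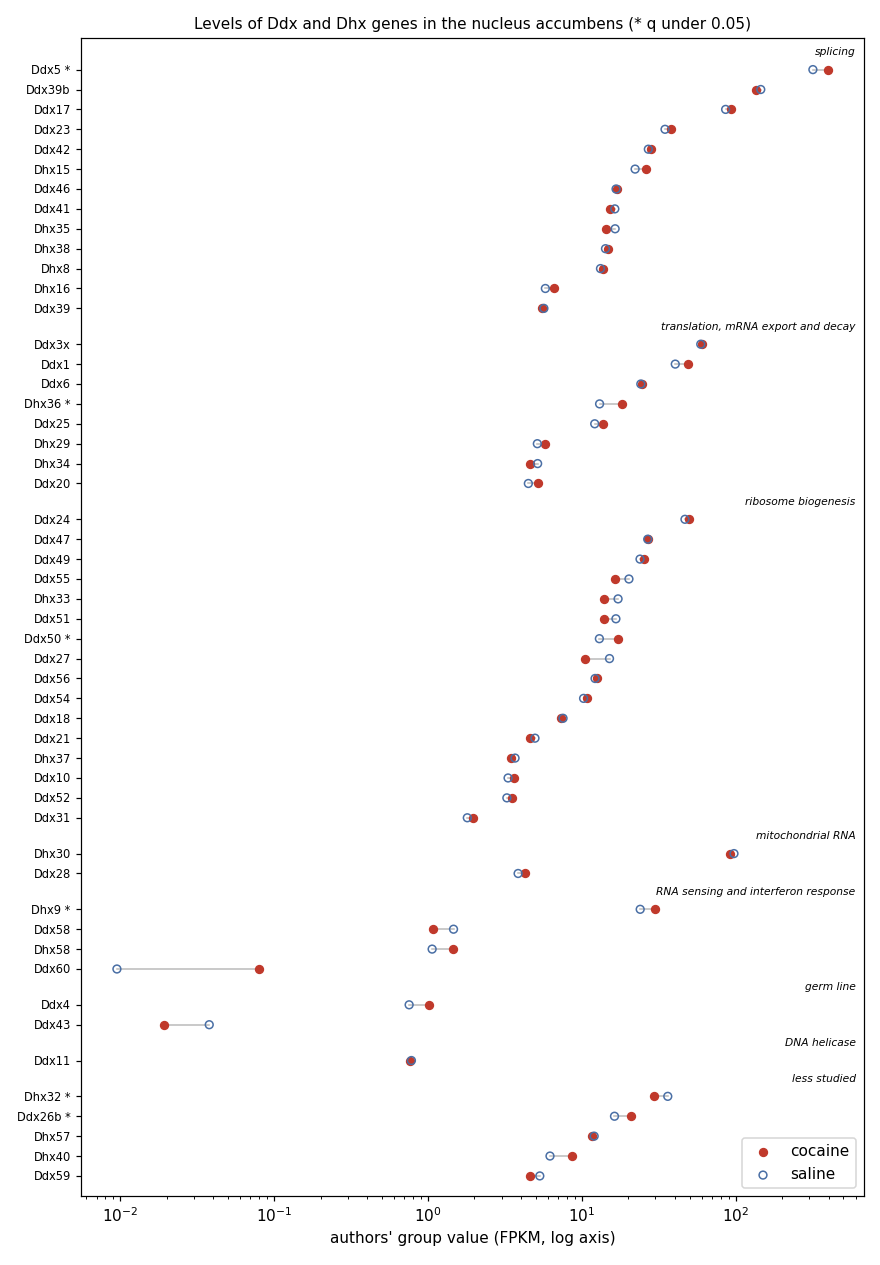
The horizontal axis gives the authors' group value of each of the 51 genes (FPKM, log axis), with filled points for cocaine and open points for saline, ordered by role and level, and stars for a q under 0.05. The points of most genes nearly coincide, and the widest gaps are those of Ddx60 and Ddx43, both below 0.1 FPKM.

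The spliceosome and its helpers form the most abundant set, with 13 members. Ddx5, also called p68, is a splicing regulator, a transcription coactivator and a partner of Drosha in microRNA processing, and lies at chromosome 11, 106641669 to 106650499 (mm9, the build in the submitters' notes, as for all gene positions below). Its group values were 396 FPKM after cocaine and 316 FPKM after saline. Ddx5 rose by 0.32 ± 0.050 on the log2 scale (implied standard error), with q = 2.54e-09 in the authors' deposited table. The implied standard error is the absolute log2 ratio over the absolute test statistic of the authors, and may leave out variation among pools. The call held under every scaling and adjustment tried, with log2 ratios of 0.25 to 0.32 and q from 2.54e-09 to 1.36e-05. In the GENCODE vM21 annotation, of the later build GRCm38, 168 exonic bases of Ddx5 (2.91%) also belong to Gm25994 and Mir3064 on the same strand. Ddx17 (p72), the close relative with which Ddx5 forms dimers, had 92.3 FPKM after cocaine and 85.7 FPKM after saline. Its log2 ratio of 0.11 ± 0.13 was not called (q = 0.785 in the authors' deposited table). Whether the ratios of Ddx5 and Ddx17 differ was not tested.

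Ddx39b (UAP56), which loads onto mRNA during splicing and hands it to the export machinery, had 136 FPKM after cocaine and 145 FPKM after saline. The log2 ratio was -0.092 ± 0.12 and not called (q = 0.804 in the authors' deposited table). The printed locus of Ddx39b also holds SNORD83.1 and SNORD83.2. SNORD83.1, at 0.557 FPKM after cocaine and 0.854 FPKM after saline, was called (log2 ratio -0.62). In the same GENCODE annotation, 4.41% of the exonic bases of Ddx39b also belong to Gm22589 and Mir8094 on the same strand. Its relative Ddx39 had 5.49 and 5.65 FPKM in the cocaine and saline groups. The other members of the set act at single steps of the splicing cycle, known mainly from their yeast counterparts. Ddx46 (Prp5 in yeast) and Ddx23 (Prp28 in yeast) act while the spliceosome assembles, and had log2 ratios of 0.028 and 0.13. Dhx16, Dhx38, Dhx8 and Dhx15 (Prp2, Prp16, Prp22 and Prp43 in yeast) act in that order from catalytic activation to disassembly. Their log2 ratios were 0.18, 0.045, 0.050 and 0.24. None of these 4 was called, and Dhx15, at 26.1 FPKM after cocaine and 22.1 FPKM after saline, came nearest (q = 0.221 in the authors' deposited table). Ddx41, Ddx42 and Dhx35, also found in spliceosomes, had log2 ratios of -0.11, 0.058 and -0.20. In all, 9 of the 13 splicing members were higher and 4 lower after cocaine, with 1 call, a median log2 ratio of 0.050 and a range of -0.20 to 0.32.

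Helicases of translation, export, storage and decay of mRNA and of allied complexes were 8 in number, 7 of them higher after cocaine and 1 lower, with 1 call. The called gene was Dhx36, which resolves G-quadruplexes, four-stranded folds of G-rich RNA and DNA (chromosome 3, 62273961 to 62310926). Dhx36 had 18.2 FPKM after cocaine and 13.0 FPKM after saline. It rose by 0.49 ± 0.14 on the log2 scale, the highest ratio among members of at least 1 FPKM, with q = 0.00907 in the authors' deposited table. It remained called with both groups scaled to the same FPKM sum (0.41, q = 0.0358 in the recomputed adjustment).

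Ddx3x, an X-linked factor for translation of mRNAs with structured leaders, had 59.8 FPKM after cocaine and 59.1 FPKM after saline. Its log2 ratio was 0.016 ± 0.091, with a 95% interval of -0.16 to 0.20, so that a change of 1.5-fold lay outside the interval, and the ratio turned to -0.011 with centring and -0.056 with equal FPKM sums. Reads of Ddx3x may be shared with its close relative on chromosome Y. Ddx6, which represses mRNAs and holds them in P-bodies, had 24.4 FPKM after cocaine and 24.1 FPKM after saline, an interval of -0.17 to 0.21 on the log2 scale. Ddx1, part of the tRNA ligase complex and of neuronal RNA granules, had 48.7 FPKM after cocaine and 40.4 FPKM after saline. Its log2 ratio of 0.27 ± 0.12 was not called (q = 0.120 in the authors' deposited table). The rest were Ddx25, an export factor known from testis (log2 ratio 0.18), Ddx20, the Gemin3 subunit of the SMN complex that builds small nuclear ribonucleoproteins (0.20), Dhx29, which helps small ribosomal subunits scan mRNA (0.17), and Dhx34, a factor of nonsense-mediated decay (-0.17). The row that names Ddx19a and Ddx19b, paralogs that release export factors at the nuclear pore, had 18.1 FPKM after cocaine and 17.6 FPKM after saline.

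Ribosome biogenesis, the assembly of ribosomal subunits in the nucleolus, was represented by 16 members, of which 9 were higher and 7 lower after cocaine. The single call was Ddx50, a nucleolar protein (chromosome 10, 62078540 to 62113966). Ddx50 had 17.2 FPKM after cocaine and 13.0 FPKM after saline and rose by 0.41 ± 0.14 on the log2 scale, with q = 0.0347 in the authors' deposited table. The call was lost when ratios were centred on the median of all genes (q = 0.0554 in the recomputed adjustment). Ddx21, the paralog of Ddx50 and its neighbour at 62042996 to 62065046, had 4.59 FPKM after cocaine and 4.95 FPKM after saline. Its log2 ratio was -0.11 ± 0.15 (q = 0.830 in the authors' deposited table). The pair was picked out after the values were seen, and the difference between the paralogs was not tested.

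Ddx27, which acts in the processing of ribosomal RNA precursors, had the lowest log2 ratio among members of at least 1 FPKM. It had 10.5 FPKM after cocaine and 15.1 FPKM after saline, a log2 ratio of -0.53 ± 0.20, and missed the threshold (q = 0.0611 in the authors' deposited table). It was called when p-values were adjusted over genes of at least 1 FPKM alone (q = 0.0485), when ratios were centred (q = 0.0441) and when FPKM sums were made equal (q = 0.0240). Ddx55 and Dhx33 of the same set had log2 ratios of -0.30 ± 0.14 and -0.29 ± 0.12, with q = 0.174 and q = 0.112 in the authors' deposited table. With equal FPKM sums, Dhx33 was called too, and it makes up the 3 members called lower there with Ddx27 and Dhx32. Ddx24, the most abundant of the 16, had 49.8 FPKM after cocaine and 46.7 FPKM after saline, a log2 ratio of 0.094 ± 0.10. The remaining 10 (Ddx10, Ddx18, Ddx31, Ddx47, Ddx49, Ddx51, Ddx52, Ddx54, Ddx56 and Dhx37) lay between -0.27 (Ddx51) and 0.14 (Ddx10), and were not called. The median of the set was 0.031.

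Of the members tied to RNA sensing, Dhx9 (RNA helicase A), which unwinds double-stranded RNA and RNA-DNA hybrids, was the abundant one (chromosome 1, 155302888 to 155334790). Dhx9 had 29.9 FPKM after cocaine and 23.9 FPKM after saline and rose by 0.32 ± 0.11 on the log2 scale, with q = 0.0425 in the authors' deposited table. Centring on the median of all genes ended that call (q = 0.0734 in the recomputed adjustment). The cytosolic viral RNA sensors were near the lower end of the range. Ddx58 (RIG-I) had 1.07 FPKM after cocaine and 1.46 FPKM after saline, and Dhx58 (LGP2) had 1.44 FPKM after cocaine and 1.06 FPKM after saline. Their intervals, -1.19 to 0.29 and -0.45 to 1.33 on the log2 scale, reach past 1.5-fold upward for Dhx58 and downward for Ddx58. The printed locus of Dhx58 holds 5 other rows, and 2 of these, Cnp (log2 ratio -0.27) and Dnajc7 (0.21), were called. Ddx60, an interferon-induced factor, had 0.0792 FPKM after cocaine and 0.00950 FPKM after saline, levels too low for the ratio to be read. Of 15 listed interferon-induced genes, 13 had a row of their own and status OK. These had 0 calls at a q under 0.05 in the authors' deposited table, and 1 at an unadjusted p under 0.05. Cuffdiff is the test named by the submitters' notes. Of all rows of status OK, 11.9% were called and 21.2% had an unadjusted p under 0.05. Several of the 13 were below 1 FPKM with wide implied standard errors, such as Oas1a (1.0 on the log2 scale) and Rsad2 (1.1). For those, the lack of a call cannot decide whether they changed. Of the 13, 10 were higher and 3 lower, with a median log2 ratio of 0.21. The uncounted row that names Irf9 with Rnf31 had a log2 ratio of -0.37 with q = 0.0226 in the authors' deposited table.

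The remaining members include Dhx30 and Ddx28, which work on RNA and ribosomes in mitochondria. Dhx30 had 91.9 FPKM after cocaine and 97.1 FPKM after saline, a log2 ratio of -0.080 ± 0.085, with a 95% interval of -0.25 to 0.086. Ddx28 had 4.29 and 3.84 FPKM in the cocaine and saline groups. The germ line helicases Ddx4 (Vasa) and Ddx43 were at 1.01 and 0.0192 FPKM after cocaine and at 0.752 and 0.0378 FPKM after saline. The DNA helicase Ddx11, which acts in sister chromatid cohesion, was at 0.765 FPKM after cocaine and 0.779 FPKM after saline.

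Among 5 members whose functions are less studied, 1 was called in each direction. Ddx26b (chromosome X, 53708034 to 53761020) had 20.9 FPKM after cocaine and 16.3 FPKM after saline and rose by 0.36 ± 0.12 on the log2 scale, with q = 0.0244 in the authors' deposited table. With equal FPKM sums it was no longer called (q = 0.0964 in the recomputed adjustment). Dhx32 (chromosome 7, 140877926 to 141073215) had 29.3 FPKM after cocaine and 36.1 FPKM after saline. Dhx32 was the single called member to fall, by 0.30 on the log2 scale (± 0.095, q = 0.0181 in the authors' deposited table), and it stayed called under each scaling. It is also the single called member whose printed locus holds other rows, which are Bccip, Fank1, Uros and Gm15483. None of these was called, with log2 ratios of -0.039, 0.0041, 0.26 and 0.27. In the same GENCODE annotation, 4.89% of the exonic bases of Dhx32 lie opposite Bccip on the other strand, and whether the libraries kept strand is not given in the sources used here. The other 4 called genes share no exonic base with another gene there. Dhx40 had 8.59 FPKM after cocaine and 6.19 FPKM after saline, a log2 ratio of 0.47 ± 0.18, and missed the threshold (q = 0.0604 in the authors' deposited table). Dhx40 passed it with adjustment over genes of at least 1 FPKM (q = 0.0481). With centring and with equal FPKM sums it stayed uncalled (q = 0.0845 and q = 0.134 in the recomputed adjustment). Dhx57 and Ddx59 had log2 ratios of -0.054 and -0.22.

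**Figure D2:**
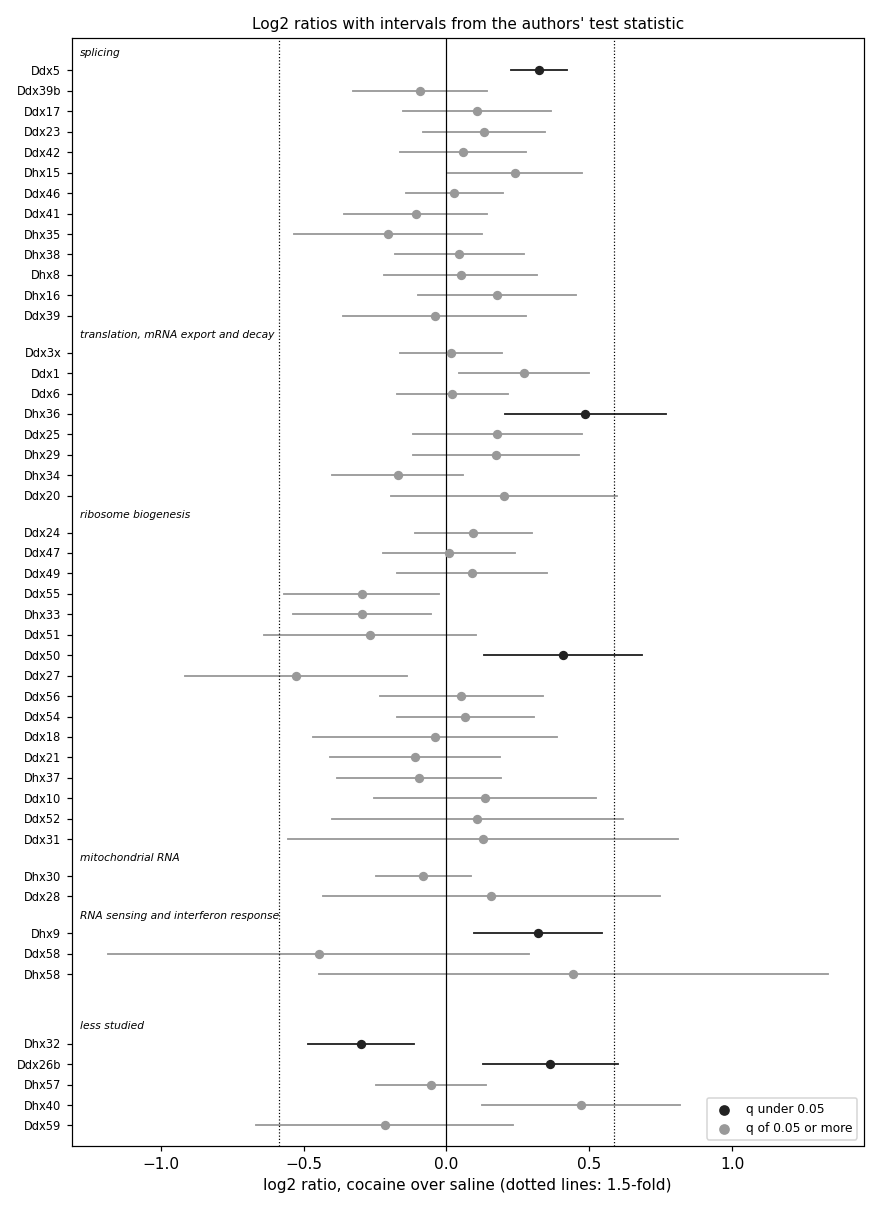
The horizontal axis gives the log2 ratio of cocaine over saline for the 47 genes with a mean of at least 1 FPKM, with bars for the 95% interval from the authors' test statistic, dark where q was under 0.05, and dotted lines at 1.5-fold. All 47 points lie between the dotted lines, and the 5 called higher and 1 called lower are those whose bars stay furthest from 0 for their width.

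Across the family, differences were small and in either direction. After cocaine 32 members were higher and 19 lower (62.7% higher), against 53.2% higher among 20054 genes of status OK above 0 in both groups. With ratios centred on the median of all genes the split was 29 to 22 (56.9% higher), and with equal FPKM sums it was 23 to 28 (45.1% higher). The median log2 ratio of the 51 was 0.052, beside 0.027 for all such genes, and it turned to -0.020 with equal sums. Equal sums lower every log2 ratio by 0.072 and centring by 0.027, so the medians given above for the smaller sets shift by the same amounts. Among members of at least 1 FPKM, 0 of 47 differed by 1.5-fold or more, beside 8.66% of all 14567 such genes, and their median absolute log2 ratio was 0.14, beside 0.20. Their transcripts had a median length of 3766 nt, beside 2881 nt for all genes at that level with a known transcript. No comparison of members with all genes was matched for length or level. At that level 6 of 47 members (12.8%) were called, against 14.8% of all genes.

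The 95% intervals rest on the implied standard errors, which may leave out variation among pools, so they may be too narrow. Of 45 uncalled members, 31 had a 95% interval that lay wholly inside 1.5-fold in either direction, and 14 had one that reached beyond it. Of the 47 members of at least 1 FPKM, 34 (72.3%) had such a narrow interval, beside 55.9% of all genes at that level. The members' implied standard errors were also lower, with a median of 0.14 beside 0.16. At an unadjusted p under 0.05, which 21.2% of all rows of status OK reached, there were 12 members, the 6 called ones with Ddx1, Ddx27, Ddx55, Dhx15, Dhx33 and Dhx40. The number of fragments per library is unknown, and no limit from counting can be given.

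**Figure D3:**
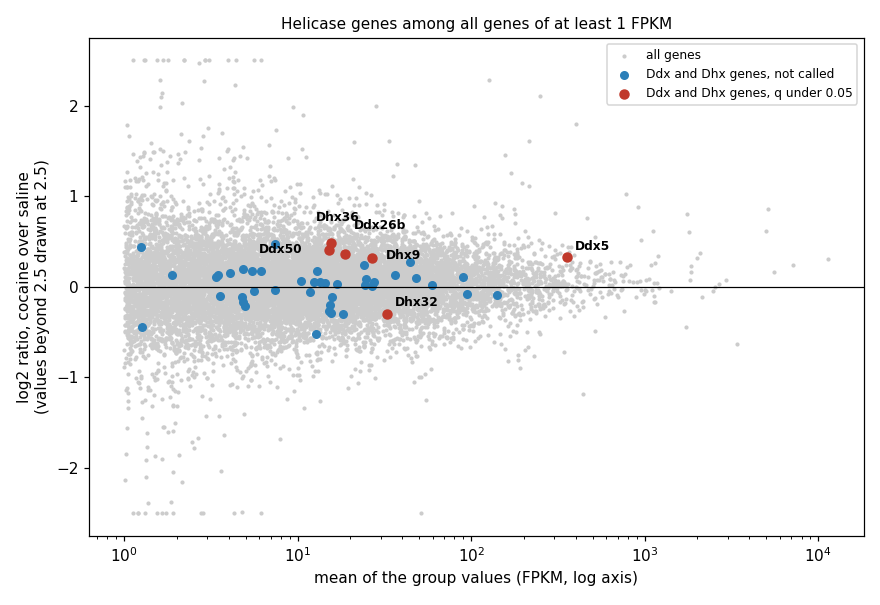
The horizontal axis gives the mean of the group values (FPKM, log axis) and the vertical axis the log2 ratio of cocaine over saline, for all 14567 genes of at least 1 FPKM (grey) and the 47 helicase genes (coloured, red where q was under 0.05). The helicase genes lie within the band of other genes at the same level, from -0.53 to 0.49.

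A property that moved with the ratios was the GC content of the transcript, taken from the longest protein-coding transcript in GENCODE vM21. The 5 genes called higher had transcripts of 40.0 to 44.6% GC, and Dhx32, called lower, had 51.5%. When all genes of at least 1 FPKM were split into 3 bins of equal size by GC content, 16 of the 18 members in the lowest bin were higher after cocaine, against 6 of 15 in the middle bin and 8 of 14 in the highest. The same bin held higher ratios in the whole table, with a median of 0.13 over 4562 genes, against 9.5e-05 and -0.0098 in the other two. From the lowest to the highest bin, 11.9%, 5.72% and 5.09% of all genes were called higher, and 5.44%, 8.86% and 7.72% lower. The share of all genes that were higher, called or not, was not computed by bin, so the members' counts have no like measure beside them. Spearman's rho between GC content and log2 ratio was -0.40 across the 47 members and -0.18 across 13683 genes, which share the same libraries and are not independent. For transcript length rho was 0.0036 across the members and -0.32 across all genes. The part of GC content in the calls was not tested.

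**Figure D4:**
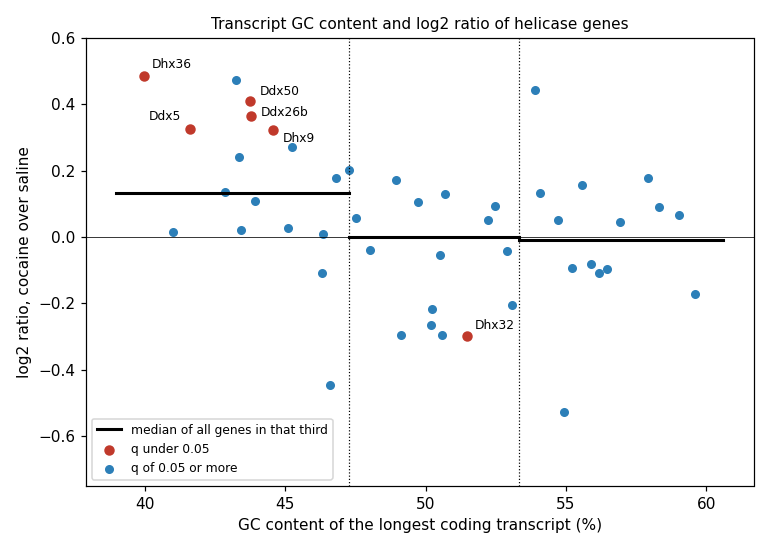
The horizontal axis gives the GC content of the longest coding transcript (%) and the vertical axis the log2 ratio of cocaine over saline for 47 helicase genes, red where q was under 0.05, with dotted lines between the bins of all genes and black bars at the median of all genes in each bin. All 5 genes called higher lie left of the first dotted line, at 47.3%, above the bar at 0.13.

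Genes of helicase partners and of other RNA helicases were described from 6 lists. Of 75 listed symbols, 64 had a row of their own and status OK, and 10 of these (15.6%, against 11.9% of all rows of status OK) were called, 6 higher and 4 lower. Among 16 RNA helicases outside the Ddx and Dhx names, Helz (13.7 FPKM after cocaine and 20.2 FPKM after saline) fell by 0.56 on the log2 scale, and 0 rose at a q under 0.05 in the authors' deposited table. The translation helicase Eif4a1 (log2 ratio 0.089) and Eif4a3 (0.024), the helicase of the exon junction complex, were not called. Eif4a2, which like Eif4a1 serves in the cap-binding complex, shares its row with a small nucleolar RNA and was left out of the count. That row had 388 FPKM after cocaine and 281 FPKM after saline, a log2 ratio of 0.47 ± 0.062 with q = 1.92e-12 in the authors' deposited table.

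Of 8 measured partners of eIF4A and of the exon junction complex, Rbm8a, a core subunit of that complex, rose by 0.44 and Eif4g1, the scaffold of the cap-binding complex, fell by 0.25 on the log2 scale. Of 11 partners of Ddx6 and Ddx19 with a row of their own, 3 were called higher and 2 lower. By the authors' test (Cuffdiff), 6 of the 11 had an unadjusted p under 0.05. Beside the counts of each list, 11.9% of all rows of status OK were called and 21.2% had an unadjusted p under 0.05. The lists were chosen with earlier results of these data known, and no list was tested as a set. Edc4, a decapping cofactor, shares its row with Nrn1l, and that row, outside the count, had a log2 ratio of -0.44 with q = 9.57e-05 in the authors' deposited table. Dcp2, the decapping enzyme (6.80 FPKM after cocaine, against 4.95 FPKM after saline), Lsm14b (75.9 and 55.9 FPKM in that order) and the nuclear pore gene Nup214 had log2 ratios of 0.46, 0.44 and 0.42. Atxn2, an RNA-binding protein that associates with Ddx6, had 144 FPKM after cocaine and 202 FPKM after saline, a log2 ratio of -0.49, and Eif4enif1, which brings eIF4E to P-bodies, had -0.39. Of the helicases of this list, Ddx6 had a log2 ratio of 0.021 ± 0.099, and the row that names Ddx19a and Ddx19b had 0.040 ± 0.11. Of 9 partners of Ddx20, Ddx1, Ddx5 and Ddx39, 2 were called higher and 0 lower. These were Thoc1 of the export complex THO and Fam98a, with log2 ratios of 0.56 and 0.46. Called or not, 7 of the 9 were higher and 2 lower, the lower ones being Fam98b (log2 ratio -0.11) and Thoc5 (-0.16). The uncounted row that names Gemin4 with Glod4 and Vps53 had a log2 ratio of 0.21 with q = 0.0341 in the authors' deposited table. Drosha has a failed estimate, with status FAIL and 0 in both groups. The 7 measured G-patch proteins and other cofactors of DEAH box helicases had 0 calls in the authors' deposited table (Cuffdiff), and 0 at an unadjusted p under 0.05. Of the 10 called genes of these lists, 4 were alone in their locus, as were 37 of all 64 counted genes.

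**Figure D5:**
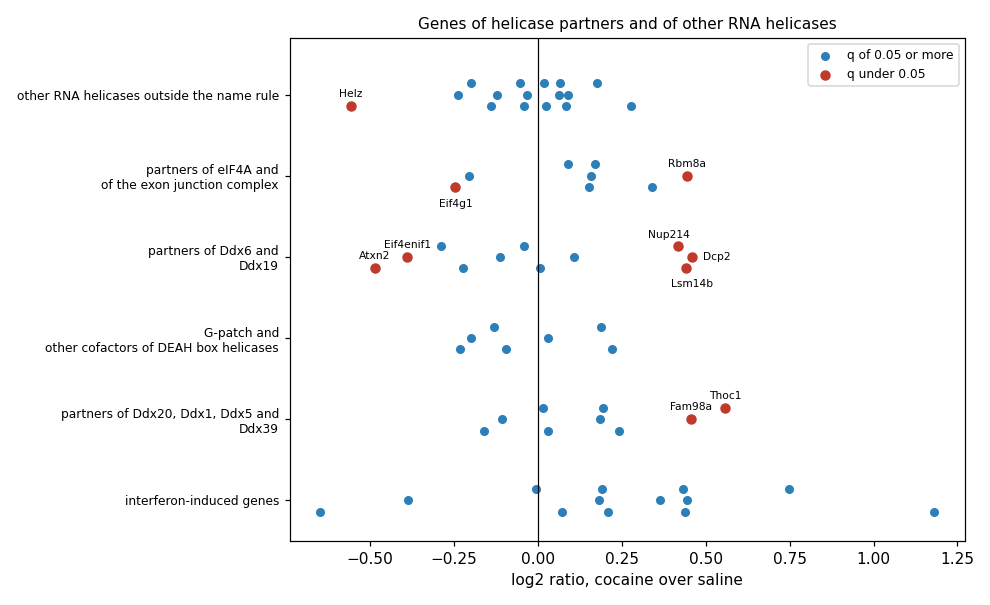
The horizontal axis gives the log2 ratio of cocaine over saline for the 64 counted genes of 6 lists, with the lists down the page and genes of a q under 0.05 in red and named. Called genes stand on both sides of 0, with Helz at -0.56 and Thoc1 at 0.56.

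Markers of accumbens projection neurons were abundant (8 of 8 measured, summed level 3745 FPKM after cocaine and 3337 FPKM after saline, with Tac1 called higher). Called or not, 6 of the 8 were higher and 2 lower, the lower ones being Drd2 (log2 ratio -0.11) and Rgs9 (-0.030). Penk had 1943 FPKM after cocaine and 1737 FPKM after saline, with a wide implied standard error (0.59 on the log2 scale). The choroid plexus list of 7 summed to 17.0 FPKM after cocaine and 101 FPKM after saline, with Ttr called lower, at 9.46 FPKM after cocaine and 93.4 FPKM after saline. Without Ttr the list summed to 7.53 FPKM after cocaine and 7.61 FPKM after saline, with Clic6 (log2 ratio 0.38) and Kcne2 (0.34) higher, the other 4 lower and none of the 6 called. Summed levels of the other lists were 1885 and 1949 FPKM for oligodendrocytes, 206 and 213 FPKM for astrocytes, 64.1 and 70.7 FPKM for microglia and 41.4 and 38.2 FPKM for endothelium, in the order cocaine and saline. Of these glial and endothelial genes, Mbp and Pecam1 were called, both lower, and no marker of any list was at 0 in a group. The part of these cell types in the helicase ratios was not tested.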

How the data were processed

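RNA of 3 cocaine and 3 saline pools was sequenced. Per the submitters' processing notes, which give no versions or settings, CASAVA, TopHat and Cuffdiff were used with mm9 and NCBIM37. The authors deposited 1 FPKM value per gene and group, per the file headers (the unit is read from the Cuffdiff layout), together with a p-value, a q-value and a test statistic, treated as a score. The sign of the statistic was opposite to the log2 ratio in 100% of rows, so directions rest on the column names, and start positions were written 1-based. Of 35406 rows, 23479 had status OK. Depth per library is unknown.

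Members and lists were chosen with earlier results of these data known. Log2 ratios of cocaine over saline FPKM had no pseudocount. Genes were called at the deposited q under 0.05 with status OK. Implied standard errors gave 95% normal intervals. Every member could be named, with full values for called members, for those with q from 0.05 to 0.1 and for the 6 most abundant. Partner rows naming several genes were not counted, 1 listed gene is not reported here, and older symbols were matched through RefSeq synonyms. The calling and the implied standard error were tested on simulated data. Its noise was drawn from the implied errors, without variation among pools, and the other steps were not simulated. Python 3.11.15, pandas 2.3.3 and SciPy 1.17.1 were used.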

Additional observations from a re-analysis of the deposited data

How the results depend on the processing

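The table gives 1 value per group, so no pool could be left out. No paired analysis was possible because the columns carry no replicate numbers. No symbol had a further row, so no other row could be taken. Of the 6 called helicase genes, 2 passed a q under 0.01 (2 higher, 0 lower) and 0 differed by 1.5-fold (0 higher, 0 lower). At a q under 0.1, and with p adjusted again over genes of at least 1 or at least 5 FPKM, 8 members were called, 6 higher and 2 lower. Rows alone in their locus left 5 called higher and 0 lower. Scaling, chosen after the data were seen for calls, gave 3 higher and 2 lower with centring and 2 higher and 3 lower with equal FPKM sums. The median log2 ratio of the family turned to -0.020 with equal sums, and that of Ddx3x, not called, to -0.011 with centring and -0.056 with equal sums. Under alternatives likewise added later, the 10 called partner genes became 6 at a q under 0.01 and 0 at 1.5-fold. Among rows alone in their locus, 4 were called, of 37 such genes in place of 64. For the 13 most closely described helicase genes, 3 settings (both scalings and adjustment over genes of at least 1 FPKM) could change a call. Of their 39 values, 28 kept direction and side of the threshold, 5 lost a call, 4 gained one and 2 turned. A pseudocount or adjustment over all rows of status OK left q within 1% of the deposited value (with q above 1 read as 1), and tests no call. Without Ddx26b, 5 genes were called.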
